A study of Mus musculus with 16 samples.

Results

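The mRNA levels of 10 heat shock proteins and co-chaperones were followed in the mouse tibialis anterior, a fast-twitch muscle at the front of the shin. The 10 genes were chosen by symbol, as the rows named Hspa1a, Hspa1b, Hspa8, Hsph1, Hsp90aa1, Dnajb1, Hspb1, Hspb6, Hspb7 and Cryab among the 14538 genes of the table, and all 10 passed the minimum level for testing. The choice was made with earlier results of these data known, so that medians and counts over the 10 genes are a description. Each library came from a different mouse, and there were 5 mice given vehicle, 6 given GDF15 and 5 that were pair-fed. All were wild-type mice labelled C57BL/6 (males on the C57BL/6J background, by the study's methods) that were put on a NASH diet at 8 weeks of age, kept singly and housed at 29 °C. GDF15 is a circulating protein that lowers food intake through a receptor in the hindbrain, and recombinant GDF15 was given under the skin once a day in the morning. The protocol lists daily doses of 0.3 nmol/kg, 1 nmol/kg and 5 nmol/kg without saying which applies to these libraries. Pair-fed mice were given as much food as the GDF15-treated mice had eaten on the previous day, so that pair-fed against vehicle compares intakes. GDF15 against pair-fed compares mice matched for the amount of food, although only the pair-fed mice were on a set ration.

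Heat shock proteins are molecular chaperones that bind unfolded proteins and help them to refold or to be removed. HSP70 proteins work in a cycle that J-domain co-chaperones start and exchange factors such as HSP110 end, and HSP90 completes the folding of kinases and steroid receptors. Small heat shock proteins need no ATP, hold unfolding proteins in solution and are abundant in muscle, where they protect the contractile and cytoskeletal filaments. Many of these genes are switched on by heat shock factor 1, which binds repeats of the unit GAA in alternating orientation in their promoters.

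Because such heat shock elements mark the heat-inducible genes of the family, the promoters were searched for inverted pairs of the unit, GAANNTTC or TTCNNGAA, each of which reads the same on both strands. RefSeq promoter sequences (GRCm38.p6), taken as the 250 bases before the start, were found for 7 of the 10 genes, and 5 of these held such a pair, against 14.5% of 27025 genes with a promoter sequence and 12.3% of the 9471 tested genes that had one. Hspa8, Hsp90aa1 and Cryab had no entry, and Dnajb1 and Hspb7 had entries without such a pair. A search for exact pairs in 250 bases does not show that a gene lacks an element. An element of 3 alternating units was found in 0 of the 7 genes and in 0.514% of all genes. The stretches around the pairs are shown 5′ to 3′ in the direction of the gene, with the matched pair in capitals, since they show which of these genes have the same pair.
Hspa1a (chr17:34972242-34972271, minus strand): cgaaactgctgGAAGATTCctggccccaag
Hspa1b (chr17:34959324-34959353, minus strand): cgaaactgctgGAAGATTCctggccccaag
Hsph1 (chr5:149636351-149636380, minus strand): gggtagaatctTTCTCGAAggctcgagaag
Hspb1 (chr5:135887791-135887840, plus strand): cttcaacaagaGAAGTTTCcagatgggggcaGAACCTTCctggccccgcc
Hspb6 (chr7:30553170-30553199, plus strand): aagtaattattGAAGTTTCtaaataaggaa

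The stretches of Hspa1a and Hspa1b were identical, and in both genes the pair lay 97 to 104 bases before the start. Hspb1 was the only one of the 7 genes with 2 pairs, of which the first had the same 8 bases as that of Hspb6. The Hspb6 pair belonged to the second of its start sites, and the pairs of Hspb6 and Hsph1 lay inside the annotated span of their genes. These matches describe the letters of the window and do not show that a factor was bound.

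The libraries held approximately 9470358 to 15026948 reads, and the 6 deepest were from vehicle-treated and pair-fed mice, so that depth was not even between the groups. Summed over 8 markers, fast-fibre mRNA came to 2089540 to 2603340 normalized counts per library, and summed over 10 markers slow-fibre mRNA came to 1784 to 5495. GDF15-treated mouse 1 and pair-fed mouse 3 stood apart with the highest slow-fibre sums, 5306 and 5495, whereas the other 14 libraries reached at most 3426. In bulk RNA, fewer cells of a type and less RNA per cell cannot be told apart. Levels are given as normalized counts unless a length is named.

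Per kilobase of the longest protein-coding transcript, the mRNA level in vehicle-treated mice covered a wide range. Hspb6, a small heat shock protein of muscle, was the highest at 9995 ± 965 normalized counts per kilobase (SD, n = 5). It was followed by the constitutive HSP70 gene Hspa8 at 7407 ± 197 and by Cryab, which encodes alpha-B crystallin, at 6234 ± 453. Hspb1 reached 2017 ± 137 and Hspb7, the small heat shock protein of heart and skeletal muscle, 1058 ± 227. The next levels were 291 ± 28.5 for Hsph1, which encodes the HSP110 exchange factor, and 223 ± 50.1 for Hsp90aa1, the inducible HSP90 gene. The inducible genes of the HSP70 system were lowest, with 29.4 ± 5.67 for Hspa1a, 23.0 ± 7.13 for the J-domain co-chaperone gene Dnajb1 and 16.1 ± 8.50 for Hspa1b. The ranges of the 5 mice did not overlap between neighbours from Hspb6 down to Hsph1, but they overlapped between Hsph1 and Hsp90aa1 and among the lowest 3 genes.

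**Figure D1:**
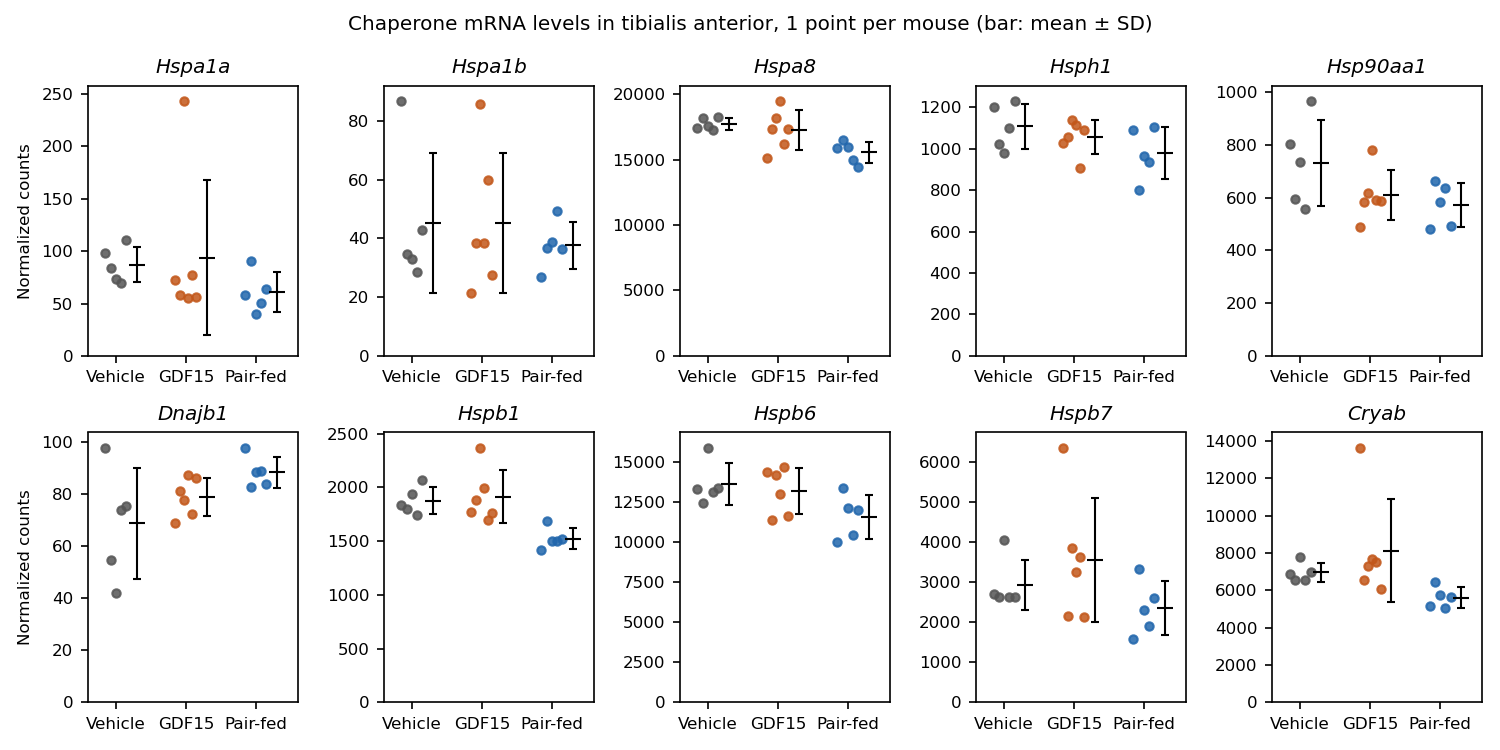
Normalized counts (vertical axis, linear, from 0) of the 10 genes in each vehicle-treated, GDF15-treated and pair-fed mouse, with 1 point per mouse and the mean ± SD beside the points. Hspb1, Hspa8 and Cryab were lower in all 5 pair-fed mice than in all 5 vehicle-treated mice, and single mice stand high for Hspa1a, Hspb7 and Cryab.

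In the HSP70 system, the constitutive gene Hspa8 was lower in pair-fed than in vehicle-treated mice, and none of the other members of the system was called. Hspa8, at chr9:40800984-40810087 on the plus strand (GRCm38), encodes the HSP70 that every cell uses for folding and for chaperone-mediated autophagy. Its normalized counts were 17388, 18184, 17569, 17239 and 18279 in vehicle-treated mice 1 to 5, and 15878, 16472, 16002, 14992 and 14450.2 in pair-fed mice 2 to 6. In the 6 GDF15-treated mice they lay between 15154 and 19458 with a median of 17352. The pair-fed mice were all below the vehicle-treated mice, whereas the GDF15-treated mice overlapped with both groups. In pair-fed mice Hspa8 fell by 12.3%, a log2 change of -0.19 (SE 0.06), with an adjusted p of 0.0659 (limma, Benjamini-Hochberg over 11841 genes). This call was lost in 8 of 30 alternative analyses, without the trend and without each of vehicle-treated mice 1, 2, 3 and 5 and pair-fed mice 2, 5 and 6, with adjusted p-values up to 0.159. GDF15-treated mice exceeded pair-fed mice by 0.15 (95% confidence interval 0.04 to 0.26), with an adjusted p of 0.225 by limma, or 0.066 without GDF15-treated mouse 1.

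Hspa1a and Hspa1b, the stress-inducible HSP70 genes, lie at chr17:34969190-34972156 and chr17:34956436-34959238 on the minus strand. Hspa1a counts were 97.9, 84.2, 73.9, 69.9 and 110.2 in vehicle-treated mice and 58.4, 90.8, 39.9, 50.4 and 63.4 in pair-fed mice. In GDF15-treated mice they ran from 55.5 to 243 with a median of 65.4, and the value of 243 belonged to mouse 3. Thus 1 GDF15-treated mouse lay far above all other mice, and all 3 groups overlapped. For Hspa1b the counts were 86.7, 34.6, 32.8, 28.6 and 42.9 in vehicle-treated and 26.8, 36.8, 38.8, 49.4 and 36.5 in pair-fed mice, with 21.5 to 85.7 and a median of 38.4 under GDF15. The same GDF15-treated mouse 3 and vehicle-treated mouse 1 were the highest here. The pair-fed against vehicle difference was -0.55 (95% confidence interval -1.22 to 0.12, adjusted p 0.376 by limma) for Hspa1a and -0.16 (-0.85 to 0.54, adjusted p 0.852) for Hspa1b. Hspa1a kept its sign in all alternatives, while the Hspa1b difference turned to 0.10 without vehicle-treated mouse 1. Of the 31-base words of their transcripts, 63.8% of those of Hspa1a also occurred in Hspa1b, so that reads could be split between them, and the sum of both differed by -0.41 (SE 0.29, adjusted p 0.491).

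Hsph1 (chr5:149614287-149636376, minus strand) and Dnajb1 (chr8:83608193-83612653, plus strand) encode partners of HSP70. Hsph1 lay between 980.0 and 1229 normalized counts in vehicle-treated, 907 and 1141 in GDF15-treated and 802 and 1103 in pair-fed mice, and the groups overlapped in every comparison. Pair-fed mice differed from vehicle-treated mice by -0.18 (95% confidence interval -0.36 to 0.00, adjusted p 0.267 by limma), and by -0.11 without pair-fed mouse 3. Dnajb1, which delivers unfolded proteins to HSP70, was the one member with a higher mean in pair-fed than in vehicle-treated mice. Its counts were 97.7, 54.8, 41.9, 74.0 and 75.5 in vehicle-treated and 97.9, 82.7, 88.5, 89.1 and 83.9 in pair-fed mice. All pair-fed mice thus exceeded 4 of the 5 vehicle-treated mice, and vehicle-treated mouse 1 was within their range. The difference of 0.41 (SE 0.17) had an adjusted p of 0.192, and it was 0.55 without vehicle-treated mouse 1 (adjusted p 0.0693 by limma) and 0.25 without vehicle-treated mouse 3 (adjusted p 0.379).

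Hsp90aa1 (chr12:110690605-110702728, minus strand) had 802, 595, 735, 558 and 965 normalized counts in vehicle-treated mice and 479.8, 663, 585, 635 and 492 in pair-fed mice. The GDF15-treated mice spanned 489 to 781 with a median of 589. Vehicle-treated mice were the most variable, and each group overlapped with the others. The log2 difference from vehicle was -0.34 (95% confidence interval -0.63 to -0.05, adjusted p 0.196 by limma) in pair-fed and -0.25 (-0.53 to 0.03, adjusted p 0.522) in GDF15-treated mice. Without vehicle-treated mouse 5, the latter was -0.14. For Hsp90aa1, 57.0% of the transcript's words were shared with the gene Gm12346 and for Hspa8 74.3% with Gm15459, and neither has a row in the table.

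Among the small heat shock proteins, Hspb1 was the member that differed in both comparisons with pair-fed mice, which share the same 5 pair-fed libraries. Hspb1, at chr5:135887919-135889563 on the plus strand, encodes HSP25 of the mouse, known as HSP27 in humans, which guards actin filaments. Its counts were 1837, 1796, 1936, 1744 and 2066 in vehicle-treated mice and 1413, 1685, 1499, 1497 and 1523 in pair-fed mice. In GDF15-treated mice they ran from 1700.1 to 2367 with a median of 1828. Every pair-fed mouse was below every mouse of the other 2 groups, and the vehicle and GDF15 groups overlapped. Hspb1 fell by 18.8% in pair-fed against vehicle-treated mice, a log2 change of -0.30 (SE 0.08), with an adjusted p of 0.0375 (limma), and this call held in all 30 alternative analyses. GDF15-treated mice exceeded pair-fed mice by 0.32 (SE 0.07), or 25.0%, with an adjusted p of 0.0486 (limma). With depth as a covariate, the latter difference was 0.27 with an adjusted p of 0.185, and the call was also lost without the trend and without each of GDF15-treated mouse 4 and pair-fed mice 2, 5 and 6. GDF15 and vehicle differed by 0.02 (95% confidence interval -0.13 to 0.17). The transcript shares 56.7% of its words with the pseudogene Hsp25-ps1, which has no row in the table.

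Cryab (chr9:50751325-50756636, plus strand) encodes a chaperone of desmin and other filaments. It had 6890.3, 6584, 7794, 6537 and 7011 normalized counts in vehicle-treated mice and 5183, 6456, 5742, 5067 and 5645 in pair-fed mice. The GDF15-treated mice ran from 6051 to 13639 with a median of 7429, and the highest value was that of mouse 1. All 5 pair-fed mice were below all 5 vehicle-treated mice, and the GDF15 group overlapped with both. The pair-fed difference of -0.31 (SE 0.15) had an adjusted p of 0.269 (limma) with all libraries in the fit. It had one of 0.0283 without GDF15-treated mouse 1, whose value widens the spread that the 3 groups share, and one of 0.0302 with only the 2 groups compared. With the mouse number as a block, the difference was -0.18 with an adjusted p of 0.499. GDF15 exceeded pair-fed by 0.48 (SE 0.14, adjusted p 0.126), and by 0.32 without GDF15-treated mouse 1 (adjusted p 0.0487). That comparison was also called without GDF15-treated mouse 6 (0.56, adjusted p 0.0838) or pair-fed mouse 3 (0.53, adjusted p 0.0925). Exons of Cryab and Hspb2 overlap on opposite strands, and 20.4% of the words of Cryab occur in Hspb2.

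Hspb6 (chr7:30552178-30555443, plus strand), which encodes HSP20, lay between 12437 and 15882 counts in vehicle-treated, 11399 and 14659 in GDF15-treated and 10001 and 13363 in pair-fed mice. The pair-fed against vehicle difference was -0.24 (95% confidence interval -0.42 to -0.05, adjusted p 0.146 by limma), and the groups overlapped. Without pair-fed mouse 3 it was -0.29 with an adjusted p of 0.061. Hspb7 (chr4:141420779-141425311, plus strand) had 2626 to 4054 counts in vehicle-treated, 2143 to 6357 in GDF15-treated and 1580.3 to 3342 in pair-fed mice. Its differences were -0.34 (-0.86 to 0.18, adjusted p 0.496) for pair-fed against vehicle and 0.55 (0.05 to 1.04, adjusted p 0.324) for GDF15 against pair-fed. The first was -0.22 without vehicle-treated mouse 3 and -0.21 without pair-fed mouse 2, and the second was 0.36 without GDF15-treated mouse 1.

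Of the 10 genes, 9 had a negative and 1 a positive difference in pair-fed against vehicle-treated mice, with a median of -0.27 on the log2 scale against 0.00 over all tested genes. At an adjusted p under 0.1, 2 were lower (Hspb1 and Hspa8) and 0 higher, where 3.17% of all genes were called lower and 3.2% higher. At an unadjusted p under 0.05, 4 were lower and 1 higher, where 9.82% and 9.04% of all genes were. With a log2 change above 0.6 in size also required, 0 of the 10 and 0.819% of all genes were called. Hspb1, Hspa8 and Cryab did not overlap between the groups, as did 2.65% of all genes in that direction.

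In GDF15-treated against pair-fed mice, 9 of the 10 differences were positive, with a median of 0.17 against 0.00 over all genes. Hspb1 was called higher and 0 were called lower, with backgrounds of 0.929% and 1.24%, and 5 were higher at an unadjusted p under 0.05, as were 6.29% of all genes. Both thresholds together called 0 of the 10 and 0.279% of all genes. Hspb1 was also the one gene without overlap, which 0.718% of all genes showed in that direction. GDF15 against vehicle gave a median of -0.03, with 4 positive and 6 negative differences. By limma 0 of the 10 were called there at the adjusted p, where 0.769% of all genes were, 0 with both thresholds, against 0.304%, and 0 at an unadjusted p under 0.05, against 11%. The intervals of this comparison were within 0.25 of 0 on the log2 scale for Hspa8, Hsph1, Hspb1 and Hspb6, and wider for the other 6 genes. All 3 comparisons share libraries with one another.

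**Figure D2:**
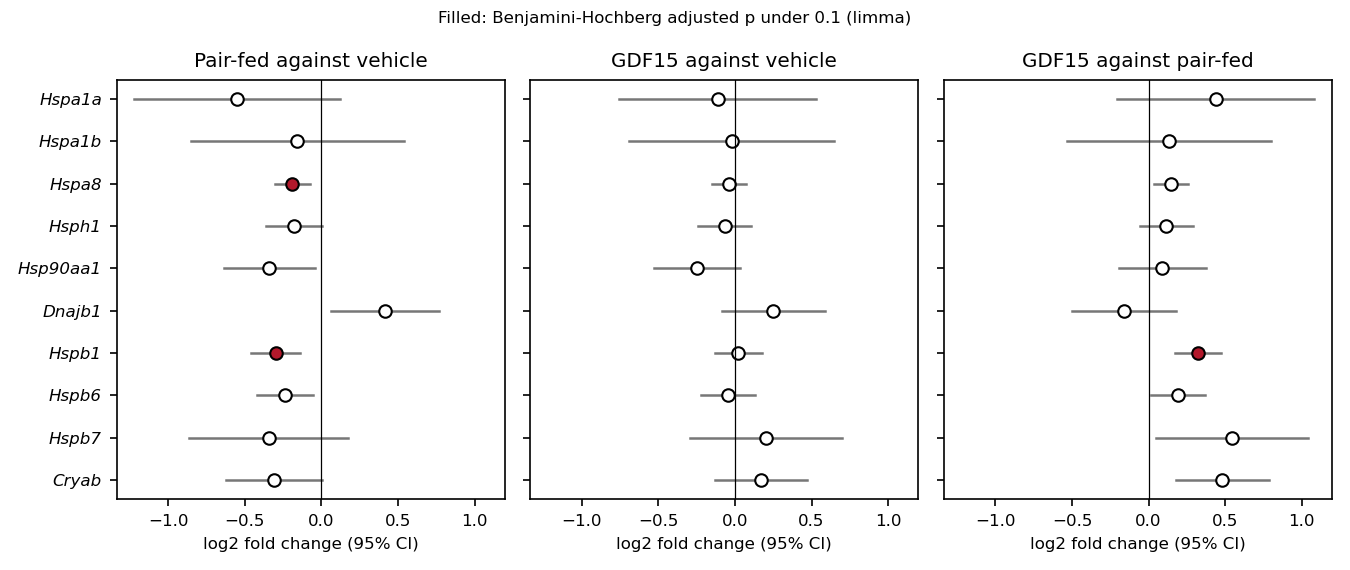
log2 fold changes (points) with 95% confidence intervals (lines) of the 10 genes in each of the 3 comparisons, from limma on log2(normalized count + 1), with filled points at an adjusted p under 0.1. Filled points are Hspa8 and Hspb1 for pair-fed against vehicle and Hspb1 for GDF15 against pair-fed, and Hspa1a and Hspa1b have the widest intervals.

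Markers of other cell types were set beside these differences. Summed endothelial mRNA (4 markers, all detected in every library) came to 3971 to 4777 in pair-fed, 3809 to 4804 in GDF15-treated and 4591 to 5429 in vehicle-treated mice. All 4 markers had negative differences from vehicle in both other groups, and Kdr was called by limma in both, at -0.50 in pair-fed mice (adjusted p 0.00473) and -0.66 in GDF15-treated mice (adjusted p 0.00116). At an unadjusted p under 0.05 by limma, 4 were lower in pair-fed mice, against 9.82% of all genes. In GDF15-treated mice 2 were lower, where 11% of all genes differed in either direction. Of the 8 fast-fibre markers, all detected, 7 were higher and 1 lower on average in pair-fed than in vehicle-treated mice (median 0.13). By limma, 3 were higher and 1 lower at an unadjusted p under 0.05, against 9.04% and 9.82% of all genes. In that comparison Myh1 was called lower (-0.68, adjusted p 0.0123), and Actn3 (0.33, adjusted p 0.0167) and Ckm (0.15, adjusted p 0.0997) were called higher. Under GDF15, 7 of the 8 were lower on average than in pair-fed mice (median -0.09). Of these, Actn3 was called (-0.27, adjusted p 0.0678 by limma). These 4 markers are named after their values were seen, and the fast-fibre sums were 2089540 to 2350180 in vehicle-treated, 2116500 to 2375810 in GDF15-treated and 2270590 to 2603340 in pair-fed mice. Slow-fibre mRNA (10 markers, all detected) came to 2462 to 3421 in vehicle-treated, 2036 to 5306 in GDF15-treated and 1784 to 5495 in pair-fed mice, with 0 markers called in any comparison and, at an unadjusted p under 0.05, 1 lower in pair-fed than in vehicle-treated mice. On average, 6 of the 10 were higher and 4 lower in pair-fed than in vehicle-treated mice (median 0.26, range -0.92 to 0.80). Under GDF15, 8 were higher and 2 lower than in vehicle-treated mice (median 0.27). Summed leukocyte mRNA (5 markers) came to 102.9 to 177 in vehicle-treated mice and 65.6 to 189 in pair-fed mice, where 4 of the 5 markers were lower on average (median -0.42) and 1 was called lower, past both thresholds by limma. Under GDF15, it came to 100.2 to 234, and summed Schwann cell mRNA (4 markers) to 777 to 1186, against 413 to 1202 in pair-fed mice. Fibroblast mRNA (4 markers) came to 3548 to 5944 under GDF15 and 2616 to 5429.7 in pair-fed mice. All markers of these 3 lists were higher on average under GDF15 than in pair-fed mice, with 0 of them called by limma and 1 leukocyte, 2 Schwann cell and 0 fibroblast markers at an unadjusted p under 0.05. The 3 red blood cell markers in the table, of which Alas2 was at 0 in some libraries, had a median log2 difference of 1.17 for GDF15 against pair-fed and 1.24 for GDF15 against vehicle, with 0 called and 0 at that unadjusted p. Their sums of 838 to 2556 under GDF15, 79.9 to 3743 in pair-fed and 259.5 to 3146 in vehicle-treated mice overlapped. Relative to vehicle, 4 of 5 adipocyte markers were higher on average in pair-fed mice (median 0.81, range -1.24 to 1.22), and all 4 Schwann cell markers (median -0.24) and all 3 smooth muscle markers (median -0.06) were lower, with 0 of them called by limma and 1 adipocyte marker lower at an unadjusted p under 0.05. The part of fast fibres and of these other cells in the Hspb1 and Hspa8 differences was not tested.

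Levels of 3 of the 4 small heat shock proteins followed the slow-fibre markers from mouse to mouse. After the group means were removed, the log2 level of Hspb7 and the mean log2 level of the slow markers had a Pearson r of 0.85 over 16 libraries (permutation p = 8e-05, adjusted p 0.0008 over 10 genes) and a Spearman rho of 0.82 (permutation p = 0.00083, adjusted p 0.00415). For Hspb6, r was 0.76 (permutation p = 0.00228, adjusted p 0.0076) and rho 0.81 (permutation p = 0.00067, adjusted p 0.00415). For Cryab, r was 0.75 (permutation p = 0.00018, adjusted p 0.0009) and rho 0.75 (permutation p = 0.00344, adjusted p 0.0115). Without the 2 libraries farthest from the median of the markers, pair-fed mouse 3 and GDF15-treated mouse 1, r was 0.74, 0.71 and 0.62 in this order. Hspb1 had an r of 0.18 (adjusted p 0.687), which was 0.16 without the same 2 libraries and 0.35 without GDF15-treated mouse 1 alone, and the HSP70 and HSP90 members had adjusted p-values for r of 0.231 or more. Whether r differs between genes was not tested.

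**Figure D3:**
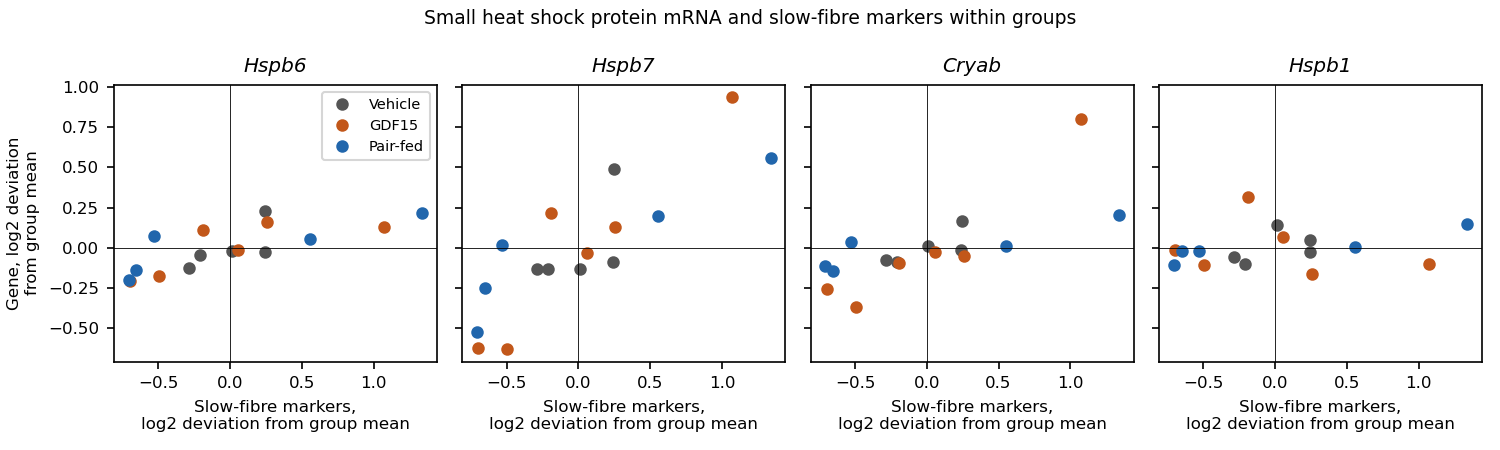
Deviation of the log2 level of each small heat shock protein gene from its group mean (vertical axis) against that of the mean slow-fibre marker level (horizontal axis), with 1 point per library and colours for the groups. Points for Hspb6, Hspb7 and Cryab rise from left to right (r of 0.76, 0.85 and 0.75), and those of Hspb1 scatter around 0 (r of 0.18).

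When the slow-fibre level was added to the model, pair-fed against vehicle called 4 of the 10 genes lower in place of 2, where 3.15% of all genes were called lower in that model and 3.17% without the covariate. Hspb6 then differed by -0.25 with an adjusted p of 0.0347 and Cryab by -0.34 with an adjusted p of 0.0822 (limma), whereas Hspb1 kept a difference of -0.30. In GDF15 against pair-fed, Cryab was called beside Hspb1, at 0.44 with an adjusted p of 0.061, where 0.785% of all genes were called higher. The covariate is measured on the same libraries and its own level may differ between groups.

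Relations between the 10 genes themselves were computed in the same way for 45 pairs. Of these, 31 were positive, the median r was 0.16, and 7 had an adjusted p under 0.1 by permutation within groups. Among these 7, Hspb6, Hspb7 and Cryab were each related to one another, with an r of 0.89 between Hspb6 and Hspb7 (rho 0.94, adjusted p 0.00315), 0.88 between Hspb7 and Cryab (rho 0.81, adjusted p 0.00315) and 0.62 between Hspb6 and Cryab (rho 0.79, adjusted p 0.0187). Without the 2 farthest libraries these were 0.85, 0.84 and 0.59. Among the HSP70 partners, Hsph1 and Dnajb1 varied together with an r of 0.60 (rho 0.66, adjusted p 0.044, and 0.70 without 2 libraries). Dnajb1 and Hspb7 ran against each other with an r of -0.51 (rho -0.64, adjusted p 0.0167). Hspa8 and Hsp90aa1 had an r of 0.57 (adjusted p 0.0877) that was 0.31 without GDF15-treated mice 1 and 4, so that it rests on those libraries. All points share libraries and depth.

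**Figure D4:**
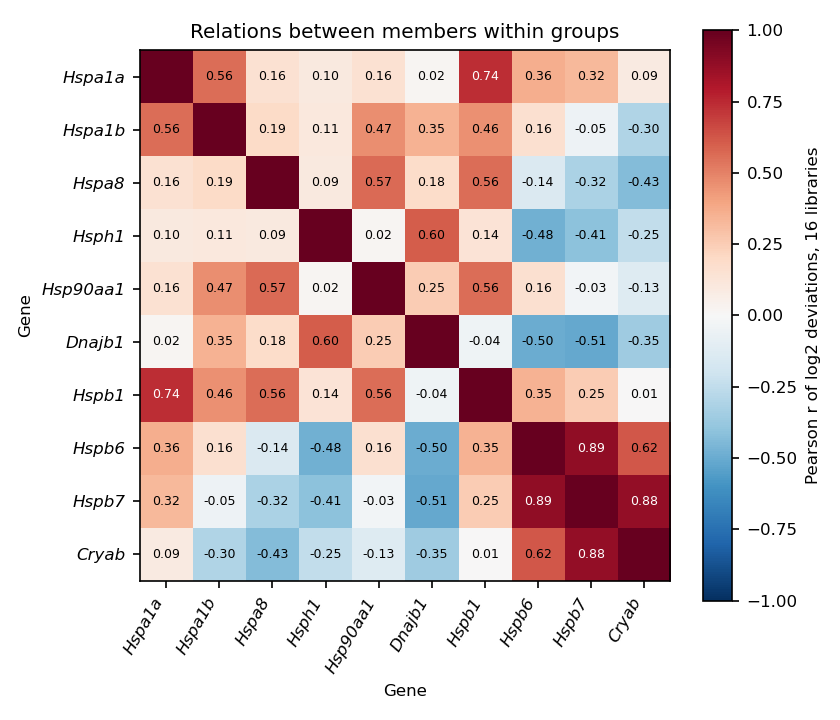
Pearson r between the log2 levels of each pair of the 10 genes after removal of the group means, over 16 libraries, with red for positive and blue for negative values. The block of Hspb6, Hspb7 and Cryab (0.62 to 0.89) stands at the lower right, and Dnajb1 is negative with each of the 3.

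Over all 16 libraries, the genes most like the mean standardized level of the 6 heat-inducible and HSP70 or HSP90 members (Hspa1a, Hspa1b, Hspa8, Hsph1, Hsp90aa1 and Dnajb1) were Rgs19 with an r of 0.84, Vps25 with 0.81, Uggt2 with 0.80, Gstcd with 0.79 and Rbms2 with 0.78, which is a description of the 5 highest values. Group differences were left in here. Dnajb1 itself had an r of only 0.25 with this mean level, and the other members of it 0.62 to 0.72. Rgs19 and Gstcd were low, with group means of 18.9 to 27.5 normalized counts. Hsf1, the gene of heat shock factor 1, differed by -0.08 in pair-fed against vehicle (adjusted p 0.51), 0.11 in GDF15 against pair-fed (0.393) and 0.04 in GDF15 against vehicle (0.872 by limma). Its mRNA level does not measure its activity.

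In the rest of the chaperone network, genes were called in both directions in pair-fed against vehicle-treated mice, where the background over all genes was 3.17% lower and 3.2% higher at the adjusted p and 9.82% lower and 9.04% higher at the unadjusted p. Among 11 other HSP70 and HSP110 genes, 10 had negative differences from vehicle with a median of -0.09, and 1 was called, the HSP110 gene Hspa4l. Hspa4l fell by 0.65 (SE 0.15, adjusted p 0.0254 by limma), from 137 ± 23.9 (SD, n = 5) to 87.1 ± 16.2 (SD, n = 5) normalized counts, which is past both thresholds. On the deposited log2 scale, which compresses low counts, its difference was -0.25 (adjusted p 0.0253), under the size threshold. Of 18 other HSP90 genes and co-chaperones, 2 were lower and 0 higher. These were Hsp90b1, the HSP90 of the endoplasmic reticulum, at -0.18 (adjusted p 0.043), and Cdc37l1 at -0.17 (adjusted p 0.0651). Of 12 HSP70 exchange and cofactor genes, 1 was lower, Bag3 at -0.19 (adjusted p 0.0624), which links HSP70 to small heat shock proteins and to autophagy.

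Of 25 other J-domain genes, 4 were called higher and 0 lower in pair-fed than in vehicle-treated mice, although 14 of the 25 had negative differences (median -0.05) and, at an unadjusted p under 0.05, 5 were lower and 4 higher. The called genes included Dnajb9 at 0.26 (adjusted p 0.016), Dnaja2 at 0.19 (adjusted p 0.0609) and Dnajb12 at 0.14 (adjusted p 0.0768 by limma). Of 17 endoplasmic reticulum chaperones and related genes, 3 were lower and 2 higher. The lists overlap, and Hsp90b1 among the lower and Dnajb9 among the higher genes are also counted in the lists above. Serpinh1, the collagen chaperone, fell by 0.36 (adjusted p 0.0235), whereas Herpud1, of the degradation machinery of the endoplasmic reticulum, rose by 0.26 (adjusted p 0.00473), as did Dnajb9. In the list of 6 genes of chaperone-assisted autophagy, Sqstm1, the autophagy receptor p62, rose by 0.36 (adjusted p 0.00322), and Flnc, the filamin that BAG3 helps to clear, fell by 0.43 (adjusted p 0.0448), as did Bag3 by 0.19. In 14 chaperonin and prefoldin genes, 8 mitochondrial chaperones and proteases, 3 other small heat shock proteins (Hspb2, Hspb3 and Hspb8) and 4 genes of heat shock factors and their binding protein (Hsf1, Hsf2, Hsf4 and Hsbp1), 0 were called by limma in this comparison, and 4, 3, 0 and 1 had an unadjusted p under 0.05. Hspa4l, Serpinh1, Herpud1, Dnajb9 and Sqstm1 kept their call in all 30 alternative analyses, whereas it was lost in 2 for Hsp90b1, 3 for Flnc, 6 for Bag3, 8 each for Cdc37l1 and Dnaja2 and 11 for Dnajb12.

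In GDF15-treated against pair-fed mice, Fkbp5 had the largest change in the chaperone lists. Fkbp5, an HSP90 co-chaperone induced by glucocorticoids, rose by 0.94 (SE 0.17, adjusted p 0.0155 by limma), from 389 ± 94.2 (SD, n = 5) to 745 ± 164 (SD, n = 6) normalized counts, and it rose by 0.80 against vehicle-treated mice (adjusted p 0.0562), which had 430 ± 103 (SD, n = 5). The call against vehicle was lost in 7 of 30 alternative analyses. Sqstm1 fell by 0.26 against pair-fed mice (adjusted p 0.0354), the J-domain gene Dnajb6 fell by 0.17 (adjusted p 0.0577) and Dnajc8 rose by 0.19 (adjusted p 0.0882). These calls were lost in 3, 8 and 19 of the alternatives, respectively, and that of Fkbp5 in 0. The remaining chaperone lists held 0 called genes by limma in this comparison and 0 to 6 genes each at an unadjusted p under 0.05. The highest count was 6 of the 17 endoplasmic reticulum genes, 4 higher and 2 lower. Over all genes, 0.929% were called higher and 1.24% lower, and 6.29% were higher at the unadjusted p. Against vehicle, Fkbp5 was the one gene called in these lists, where 0.769% of all genes were called. At that unadjusted p the lists held 0 to 4 genes each, against 11% of all genes. The count of 4 belonged to the 25 J-domain and the 17 endoplasmic reticulum genes.

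**Figure D5:**
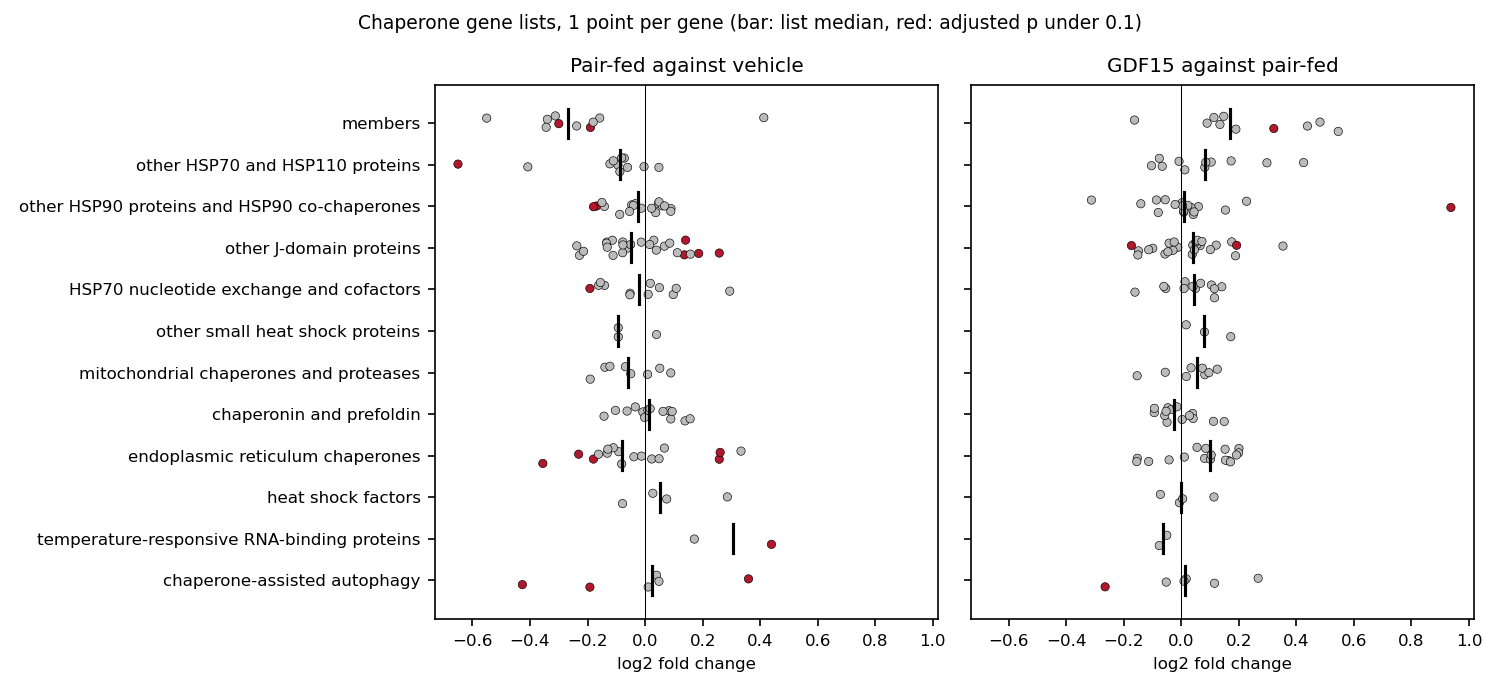
log2 fold changes of the 10 genes (top, members) and of the other chaperone lists, with 1 point per gene, the list median as a bar and red points at an adjusted p under 0.1, for pair-fed against vehicle (left) and GDF15 against pair-fed (right). The members have the median farthest below 0 on the left (-0.27), and Fkbp5 is the red point at 0.94 on the right. Members and lists were chosen with earlier results of these data known.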

How the data were processed

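RNA was extracted with TRIzol and RNeasy and libraries were made with a directional kit. Trim Galore, Salmon and DESeq2 were the authors' tools for trimming, quantification and scaling (mm10; versions are not given in the sources used here). The authors deposited log2 values per gene symbol in the form of the DESeq2 variance stabilizing transformation, between 7.32 and 19.96, which were transformed back to normalized counts. Of the low values of single-transcript genes, 92.1% to 97.2% then lay within 0.1 reads of a whole multiple of 1 step, against 20.3% to 27.0% in genes with over 4 transcripts, so that depth is approximate and count tests were not run.

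Genes averaging 10 or more normalized counts (11841 genes) were tested, two-sided, on log2(normalized count + 1) with limma 3.58.1 in R 4.3.3 (trend, all 3 groups, no covariate) with Benjamini-Hochberg adjustment over all of them. The thresholds were an adjusted p under 0.1 and, where named, a log2 change above 0.6 in size. Fold changes of low genes are understated on this scale. Relations were tested with 100000 shuffles within groups. Positions, exons and lengths come from GENCODE vM21 (GRCm38). The fit was tested on simulated data.

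The members and gene lists were chosen with earlier results of these data known. Named list genes are the 3 with the smallest adjusted p under 0.1 per list and comparison, with Hsf1, Rbm3 and Cirbp always given. Alternatives changed pseudocount, minimum, trend, weights, scaling, covariates, block and the libraries included.

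Mouse numbers recur across groups, but these are different animals, and same-numbered libraries did not deviate together (14 pairs, r of -0.10 to 0.07), so that the numbers were not used as a block. The 35 pairs of libraries of 1 group differed by more than sampling noise (mean chi-square per gene 4.90 to 19.7).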

Additional observations from a re-analysis of the deposited data

Results flagged for a closer look

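Dixon's criterion for small groups was applied to log2 levels, as in the tests. In 3 of 30 sets of values (10 genes in 3 groups), 1 mouse lay farther from the rest than the criterion allows, and chance alone does so in about 1 set in 20. For Hspa1a, GDF15-treated mouse 3 had 243 normalized counts and the other 5 GDF15-treated mice 55.5 to 77.5 (a gap of 0.775 of the group's range on the log2 scale and 0.883 on that of counts). For Hspb7, vehicle-treated mouse 3 had 4054 counts and the other 4 had 2626 to 2712 (0.926 of the log2 range and 0.94 of that of counts). For Cryab, GDF15-treated mouse 1 had 13639 counts and the other 5 had 6051 to 7682 (0.706 of the log2 range and 0.785 of that of counts), and the same mouse had the highest slow-fibre sum of its group, 5306 against at most 3426. On normalized counts, a scale added after seeing the data, 5 of the 30 sets passed the criterion, the further ones being Hspb6 in vehicle-treated mouse 3 (0.733) and Hspa1b in vehicle-treated mouse 1 (0.755).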

How the results depend on the processing

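Of the 30 differences of the members, 17 kept their sign and their side of the threshold under all alternatives run, and 6 changed sign under at least 1. For GDF15 against pair-fed, the number of members with an adjusted p under 0.1 was 1, and it was 0 without the trend and with depth as a covariate, 2 with the slow-fibre covariate, and 0 to 3 when single libraries were left out (0 without GDF15-treated mouse 4 or pair-fed mouse 2, 5 or 6, 2 without GDF15-treated mouse 6 or pair-fed mouse 3, and 3 without GDF15-treated mouse 1). For pair-fed against vehicle it was 2, and it was 1 without the trend, 4 with the slow-fibre covariate, 3 with only the 2 groups compared and 1 to 3 with single libraries left out (1 without vehicle-treated mouse 2, 3 or 5 or pair-fed mouse 2, 5 or 6, and 3 without GDF15-treated mouse 1 or pair-fed mouse 3). The adjusted p alone gave 1 and 2 members in place of 0 with both thresholds. Against vehicle, GDF15 gave 0 in every alternative. The cause of these changes was not tested.

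The sign changed with depth as a covariate for Hspa1b (-0.186), Hsp90aa1 (-0.0378) and Cirbp (0.0618) in GDF15 against pair-fed and for Hspb1 (-0.0277) in GDF15 against vehicle, and with library weights for Hspa1b in GDF15 against vehicle (0.0447). With single libraries left out, Hspa1b ranged from -0.0762 to 0.313 for GDF15 against pair-fed, from -0.234 to 0.239 for GDF15 against vehicle and from -0.287 to 0.105 for pair-fed against vehicle. For GDF15 against vehicle, the ranges were -0.0411 to 0.0575 for Hspb1, -0.0793 to 0.00895 for Hspb6 and -0.00129 to 0.0656 for Hsf1. With the mouse number as a block, the counts of called members stayed at 1, 0 and 2 and the pair-fed against vehicle median was -0.20, while Hspa1b in GDF15 against vehicle turned to 0.0352. On the deposited log2 scale, which compresses low counts, the pair-fed against vehicle differences were smaller for Hspa1a (-0.17 in place of -0.55), Dnajb1 (0.13 in place of 0.41) and Hspa1b (-0.05 in place of -0.16). Depth limits Hspa1a, Hspa1b and Dnajb1, which had at most 243 normalized counts in any library.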

Other observations

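Genes that respond to temperature or to stress outside the chaperone families were set beside them. Rbm3, a cold-induced RNA-binding protein gene, rose by 0.44 (SE 0.11, adjusted p 0.0331 by limma) in pair-fed against vehicle-treated mice, from 538 ± 60.9 to 727 ± 65.0 normalized counts (SD, n = 5 each), and all 5 pair-fed mice (654 to 797) lay above all 5 vehicle-treated mice (432 to 582). How many of all genes separate in this direction was not counted, and the separation is not shown to be particular to the pair-fed mice. GDF15-treated mice had 696 ± 127 (SD, n = 6), which exceeded vehicle by 0.36 with an adjusted p of 0.165. Cirbp, the other cold-induced gene examined, differed by 0.17 between pair-fed and vehicle-treated mice (adjusted p 0.294).

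Jun, an immediate early transcription factor gene, rose by 0.37 in pair-fed (adjusted p 0.0178) and by 0.42 in GDF15-treated mice (adjusted p 0.0224 by limma) against the same vehicle-treated mice. With depth as a covariate, the latter had an adjusted p of 0.127. Its normalized counts were 1062 ± 138 in vehicle-treated, 1372 ± 114 in pair-fed and 1418 ± 112 in GDF15-treated mice (SD, n = 5, 5 and 6). It was the one gene called among the 7 immediate early genes in either comparison.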
